A study of Mus musculus with 12 samples.

Results

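The major urinary protein (Mup) genes described here are the 10 liver genes Mup1, Mup3, Mup7, Mup12, Mup14, Mup15, Mup16, Mup17, Mup20 and Mup21, taken by gene name from a table of 55903 genes. The table holds 49 genes whose name starts with Mup, of which 27 are named as pseudogenes and 22 are not. RNA-seq of mouse liver was deposited for 12 libraries, 4 in each of 3 groups. The KSL0608-Se libraries are labelled as treated with the coded compound KSL0608-Se, and their descriptions name doxo together with the compound. The aged/doxo libraries are titled as aged controls, while their descriptions name doxo, read here as doxorubicin, a DNA-damaging drug. The young control libraries are titled as young and described as controls, with no agent named. The labels do not settle whether the aged/doxo animals were aged, given doxorubicin, or both, so KSL0608-Se and aged/doxo livers share the word doxo and young control livers do not. The series title concerns light-activated removal of senescent cells, so the question addressed here is how the Mup transcripts differ between aged/doxo and young control livers and after KSL0608-Se. The sources used here give no strain, sex, age, dose, time or number of animals behind a library, and p-values therefore measure only the spread between these libraries.

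Major urinary proteins are small lipocalins, barrel-shaped carriers of hydrophobic molecules, that hepatocytes secrete into the blood and that the kidney passes into the urine. There they bind volatile pheromones and release them slowly from scent marks, and Mup20, called darcin, is itself a male pheromone. In mouse liver the genes are transcribed more in males, under the pulsatile male pattern of growth hormone acting through its receptor and the transcription factor STAT5B.

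All 10 genes lie on the minus strand of chromosome 4 between 60066469 and 62150863 (GRCm38, GENCODE M21). Mup7 (chr4:60066469-60070475), Mup1 (chr4:60498012-60501960), Mup12 (chr4:60737383-60741326), Mup14 (chr4:61300023-61304000), Mup15 (chr4:61435790-61439743), Mup16 (chr4:61515592-61519531) and Mup17 (chr4:61591929-61595871) are called the central copies below. Mup20 (chr4:62050234-62054158), Mup3 (chr4:62083476-62087342) and Mup21 (chr4:62147932-62150863) follow at the higher coordinates. The coding sequences of the central copies were 98.5% to 99.6% identical to each other over 543 bases. Mup20 was 90.1% to 91.0% identical to the central copies, Mup21 83.7% to 84.6% and Mup3 82.4% to 83.3%, while Mup3 and Mup21 were 94.8% identical to each other. The same 60 bases of each coding sequence, bases 121 to 180 counted from the start codon, are shown because how far a copy's reads can be told from those of its neighbours limits every single-gene value below. They were read from GENCODE M21 transcripts, run 5′ to 3′, and were chosen as the stretch in which Mup3, Mup20 and Mup21 differ most from Mup7; capitals mark bases that differ from Mup7.
Mup7: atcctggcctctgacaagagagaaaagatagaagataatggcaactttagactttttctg
Mup1: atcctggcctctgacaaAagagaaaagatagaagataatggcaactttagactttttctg
Mup12: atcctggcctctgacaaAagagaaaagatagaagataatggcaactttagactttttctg
Mup14: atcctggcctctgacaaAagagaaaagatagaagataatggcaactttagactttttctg
Mup15: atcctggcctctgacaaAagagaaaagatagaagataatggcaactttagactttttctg
Mup16: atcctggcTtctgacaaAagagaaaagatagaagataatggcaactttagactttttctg
Mup17: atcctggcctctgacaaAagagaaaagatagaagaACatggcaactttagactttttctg
Mup20: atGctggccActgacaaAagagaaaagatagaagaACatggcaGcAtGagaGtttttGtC
Mup3: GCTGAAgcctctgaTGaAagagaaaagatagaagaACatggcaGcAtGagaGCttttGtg
Mup21: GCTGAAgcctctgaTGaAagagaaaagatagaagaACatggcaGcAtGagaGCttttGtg
Mup1, Mup12, Mup14 and Mup15 read the same in this stretch, each 1 base from Mup7, and Mup16 and Mup17 differed from Mup7 at 2 and 3 bases. Mup20 differed at 11 bases, and Mup3 and Mup21, which read the same here, at 17.

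Stretches of 100 bases were pooled over all annotated transcripts of a gene, 4 for Mup1 and Mup14, 3 for Mup7 and Mup3, 2 for Mup16 and 1 for each other gene. Shares of genes with different numbers of transcripts are therefore not strictly comparable. Over whole transcripts, the share of 100-base stretches found in no other Mup gene was 97.8% for Mup3, 95.5% for Mup21 and 61.2% for Mup20. Among the central copies that share was 44.3% for Mup1, 40.6% for Mup17, 24.3% for Mup14, 23.9% for Mup7, 22.5% for Mup12, 17.6% for Mup16 and 2.66% for Mup15. The shares depend on the length chosen. With 150-base stretches Mup17 came to 59.6% and Mup1 to 47.5%, nearer to Mup20 at 68.9%, while Mup3 and Mup21 came to 100%. The other central copies then ran from 9.28% for Mup15 to 34.3% for Mup14. Reads that fall in a shared stretch were divided between genes by the authors' estimator, so the levels of single central copies are uncertain. The closest coding sequence was Mup2 for Mup15 (99.6% identical), Mup19 for Mup16 (99.8%) and Mup13 for Mup17 (99.3%), none of them among the 10 genes, so reads may also be shared with copies outside the sums given below. The levels of Mup3 and Mup21 rest mostly on sequence of their own.

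The RefSeq promoter table (GRCm38.p6) held 6 of the 10 genes, namely Mup7, Mup14, Mup15, Mup17, Mup3 and Mup21. Mup1, Mup12, Mup16 and Mup20 had no entry. The stretches from 250 bases before to 50 bases after the annotated start are printed for Mup14 (chr4:61303949-61304248, minus strand) and Mup3 (chr4:62087268-62087567, minus strand). They were picked because both genes are among the most abundant, while their levels differ in how far apart the groups lie, and capitals mark the TATA-box letters TATATAA.
Mup14: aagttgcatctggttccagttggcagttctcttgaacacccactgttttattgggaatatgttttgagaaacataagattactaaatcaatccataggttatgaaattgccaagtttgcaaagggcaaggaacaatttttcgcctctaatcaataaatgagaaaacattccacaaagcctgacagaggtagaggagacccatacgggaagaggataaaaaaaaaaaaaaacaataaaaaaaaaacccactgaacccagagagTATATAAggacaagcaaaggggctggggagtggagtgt
Mup3: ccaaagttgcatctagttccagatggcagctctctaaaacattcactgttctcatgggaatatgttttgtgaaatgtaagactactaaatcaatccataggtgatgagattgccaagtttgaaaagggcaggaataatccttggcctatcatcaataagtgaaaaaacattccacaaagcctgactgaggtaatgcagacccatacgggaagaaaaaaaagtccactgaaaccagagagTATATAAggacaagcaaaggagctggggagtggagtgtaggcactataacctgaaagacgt
These promoters were 80.3% identical over 300 aligned bases. TATATAA on the gene's strand occurred once in each of the promoters of Mup14, Mup15, Mup17, Mup3 and Mup21 and was not in the window of Mup7, against 2.2% of all 32851 promoters in the table. It began at base 263 of the Mup14 window, after the annotated start, and at bases 226 to 243 in the others. The Mup7 window was 98.1% identical to that of Mup14 over 213 aligned bases. It ended before the stretch that holds TATATAA in Mup14, so its absence there does not show that Mup7 lacks these letters. The STAT5-type letters TTCNNNGAA, searched on both strands, were in none of the 6 windows and in 8.3% of all promoters.

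The libraries held 9568 to 11023 genes at 1 TPM or more, TPM being a level scaled to transcript length and to a fixed total per library. All 12 hepatocyte markers were measured above that level, with summed levels of 65114 to 77410 TPM in KSL0608-Se, 42602 to 77681 TPM in aged/doxo livers and 50006 to 72254 TPM in young control livers. Summed lymphocyte markers stayed between 3.86 and 9.93 TPM, and 2 of their 10 genes reached a mean of 1 TPM. Xist did not exceed 0.01 TPM and the Y-linked gene Ddx3y lay between 4.69 and 8.67 TPM in every library. Young control library 1 and aged/doxo library 2 stood apart on the first principal component, which held 54.9% of the variance. In aged/doxo library 2, mitochondrial genes held 27.6% of TPM, against 8.10% to 12.4% in the other libraries. In bulk liver, fewer hepatocytes and less Mup RNA per hepatocyte cannot be told apart.

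Together the 10 genes held a smaller part of the liver transcripts in aged/doxo than in young control libraries. Their sum was 7.60%, 4.99%, 7.24% and 5.54% of all TPM in aged/doxo libraries 1 to 4, against 15.6%, 9.54%, 11.8% and 8.45% in young control libraries 1 to 4. The groups did not overlap, and young control library 1 was the highest of all 12. The mean was 6.34% ± 1.27 in aged/doxo and 11.3% ± 3.17 in young control livers (SD, n = 4 each), a difference of -5.00 percentage points and a ratio of 0.559. With young control library 1 and aged/doxo library 2 both left out, the difference was -3.13 percentage points. In KSL0608-Se libraries 1 to 4 the sum was 8.02%, 5.04%, 6.58% and 7.52% of TPM, with a mean of 6.79% ± 1.31 (SD, n = 4). KSL0608-Se libraries 2 to 4 lay within the aged/doxo range, library 1 lay above it, and all 4 lay below the lowest young control library. The difference from aged/doxo was 0.444 percentage points, well under either group's SD, and it was -0.00635 without aged/doxo library 2. As a share of the TPM outside mitochondrial genes, the sum was 7.54% ± 1.37 in KSL0608-Se, 7.44% ± 1.04 in aged/doxo and 12.6% ± 3.79 in young control livers (SD, n = 4 each). On that base too, neither KSL0608-Se nor aged/doxo libraries overlapped young control libraries. After median-of-ratios scaling of the libraries, however, the sums overlapped. There aged/doxo library 2 lay above young control libraries 2 and 4, and KSL0608-Se library 1 lay above young control library 4. The difference of the aged/doxo from the young control mean was -5.78 on that scale.

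**Figure D1:**
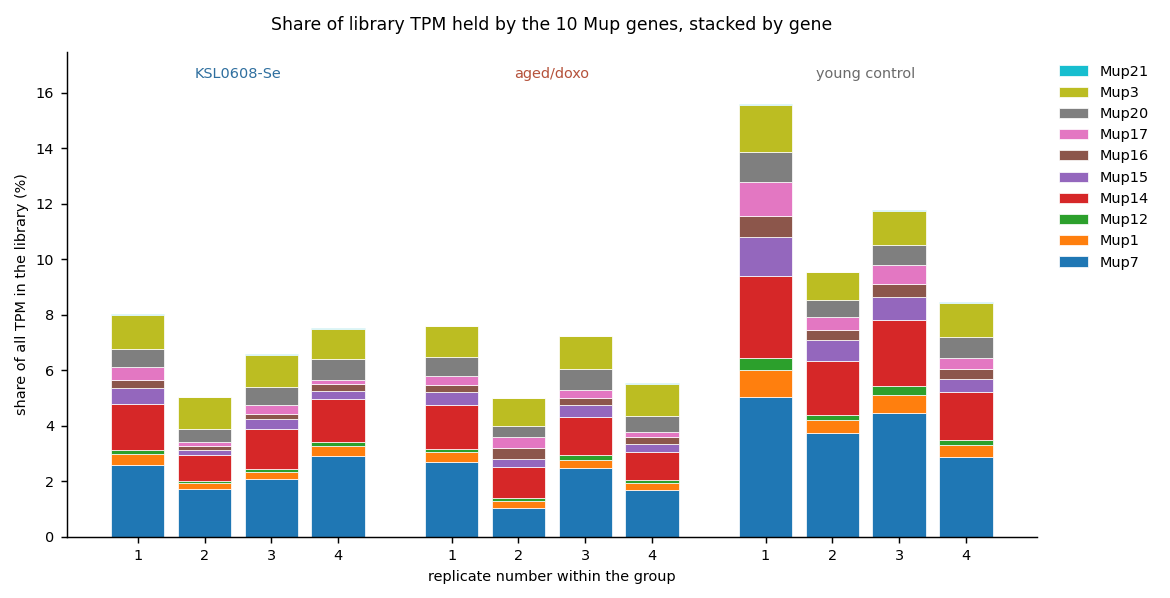
Share of each library's TPM (y axis, percent) held by the 10 Mup genes, 1 bar per library with the genes stacked, for KSL0608-Se, aged/doxo and young control livers. The 4 young control bars, from 8.45% to 15.6%, all stand above the 8 others, which lie between 4.99% and 8.02%.

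Mup7 was the highest of the 10 genes in 11 of 12 libraries and Mup21 the lowest in all 12. By mean level over the libraries Mup7 ranked 5 among all genes, Mup14 ranked 10, Mup3 ranked 17 and Mup20 ranked 31. Mup15, Mup1, Mup17, Mup16 and Mup12 followed at ranks 35, 40, 41, 48 and 74, and Mup21 ranked 440. Neighbours in this order were not always apart, since Mup3 exceeded Mup14 in 2 libraries. The highest library over the lowest was 1.73-fold for Mup3 and 10.6-fold for Mup17, with the other 8 genes between 2.63-fold and 7.99-fold. Young control library 1 was the highest of the 12 libraries for all 10 genes. Within their groups, KSL0608-Se library 2 was the lowest for 9 genes and aged/doxo library 2 for 7.

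**Figure D2:**
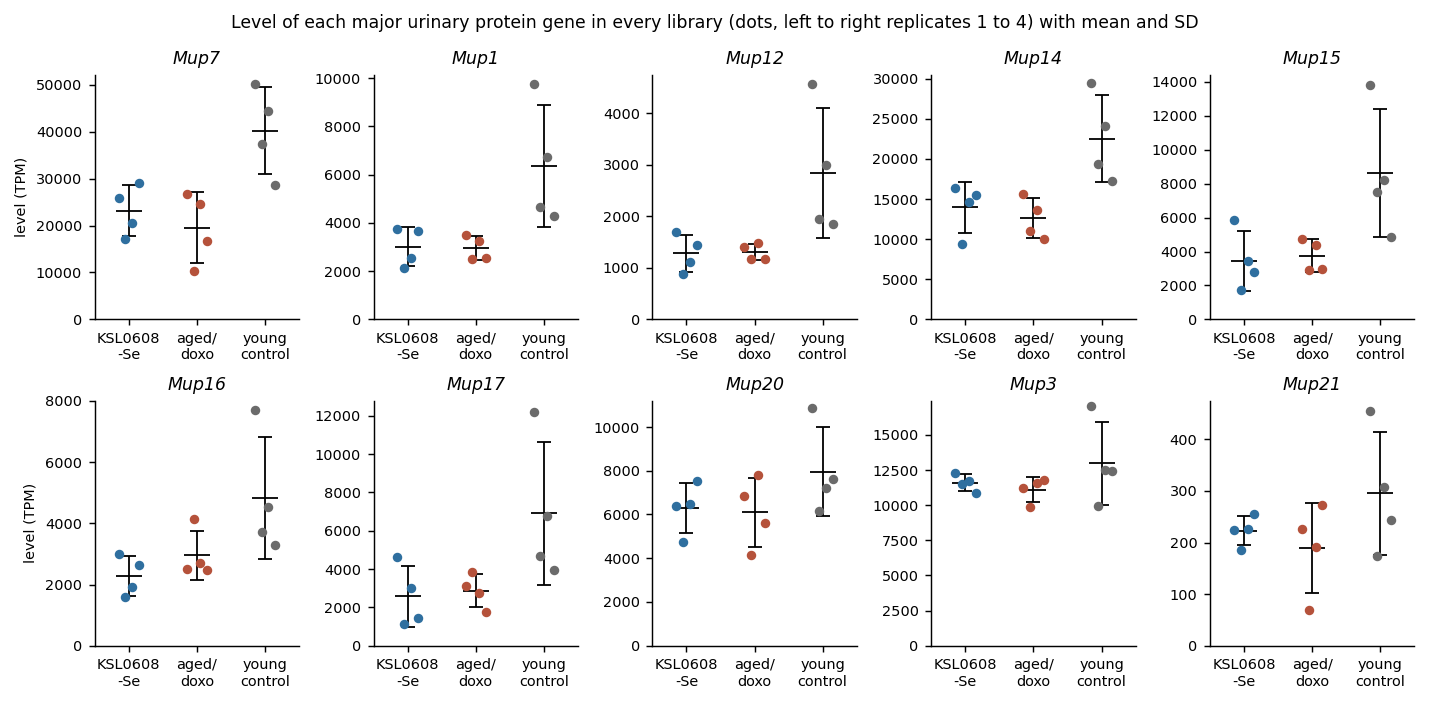
Level (y axis, TPM, starting at 0) of each Mup gene in the 4 libraries of KSL0608-Se, aged/doxo and young control livers; dots are libraries, and the bar and whiskers are the mean and SD. For Mup7, Mup1, Mup12, Mup14, Mup15 and Mup17 every aged/doxo dot lies below every young control dot, while for Mup3, Mup16, Mup20 and Mup21 the groups overlap.

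Aged/doxo livers were first set against young control livers, gene by gene. No Mup gene passed limma's adjusted p of 0.05 over the 10883 genes tested, where 0% of genes passed as lower and 0.00919% passed as higher. The adjusted p was 1 for each of the 10. At an unadjusted p under 0.05, 7 of the 10 were lower and none was higher, against 0.781% of all genes that were lower and 1.19% that were higher. All 10 had negative log2 fold changes, against 64.6% of all genes, and their median was -0.93 where the median of all genes was -0.08. In 6 of the 10 the groups did not overlap, with aged/doxo lower, against 0.312% of all genes, and in none was aged/doxo wholly higher, against 0.689% of all genes. After median-of-ratios scaling of the libraries, aged/doxo was wholly lower in 1 of 10 in place of 6, against 0.625% of all genes.

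Mup7 encodes one of the abundant urinary carriers and was the gene of highest level. It was measured at 26818, 10229.6, 24548 and 16721 TPM in aged/doxo livers, against 50186, 37332, 44427 and 28720.3 TPM in young control livers. The groups did not overlap, although aged/doxo library 1 and young control library 4 came close. The log2 fold change, on the log2(TPM + 1) scale, was -1.10 (SE 0.29, 95% interval -1.73 to -0.48, limma unadjusted p = 0.00222, adjusted p = 1). Mup1, a carrier of the same kind, was measured at 3512, 2522, 3237 and 2559 TPM in aged/doxo livers, against 9771, 4673, 6741 and 4274 TPM in young control livers. Every aged/doxo library lay below every young control library, and young control library 1 was the highest. Mup1 had a log2 fold change of -1.04 (SE 0.27, 95% interval -1.62 to -0.46, limma unadjusted p = 0.00205, adjusted p = 1). Mup12, whose coding sequence is 99.6% identical to that of Mup1, was measured at 1407, 1162, 1482 and 1177 TPM in aged/doxo livers, against 4562, 1948, 2993 and 1858 TPM in young control livers. The aged/doxo libraries were close together and all below the young control libraries, of which 2 and 4 were the nearest. Mup12 had a log2 fold change of -1.03 (SE 0.29, limma unadjusted p = 0.00345, adjusted p = 1).

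Mup14, the second in mean level, was measured at 15641, 11064, 13699 and 10070.2 TPM in aged/doxo livers, against 29521, 19312, 24111 and 17264 TPM in young control livers. The groups did not overlap. The log2 fold change was -0.83 (SE 0.22, limma unadjusted p = 0.00252, adjusted p = 1). Mup15, with the smallest share of stretches of its own, was measured at 4759, 2913, 4416 and 2966 TPM in aged/doxo livers, against 13834, 7502, 8242 and 4862 TPM in young control livers. Aged/doxo library 1 lay just below young control library 4, so the groups were only narrowly apart. Mup15 had a log2 fold change of -1.13 (SE 0.37, limma unadjusted p = 0.0094, adjusted p = 1). Mup17 was measured at 3124, 3838, 2736 and 1772 TPM in aged/doxo livers, against 12218, 4659, 6772 and 3953 TPM in young control livers. Young control library 1 stood well above the rest, and the other 3 young control libraries were closer to the aged/doxo libraries. Mup17 had a log2 fold change of -1.18 with the widest interval of the 10 genes, -2.15 to -0.21 (limma unadjusted p = 0.0214, adjusted p = 1). Mup16 was measured at 2511, 4155, 2687 and 2484 TPM in aged/doxo livers, against 7699, 3714, 4547 and 3295 TPM in young control livers. The groups overlapped through aged/doxo library 2, which was higher than young control libraries 2 and 4. Mup16 had a log2 fold change of -0.66 (95% interval -1.28 to -0.03, limma unadjusted p = 0.0408, adjusted p = 1), and -0.40 without young control library 1.

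Mup20, Mup3 and Mup21, the copies of least similar sequence, had smaller or less certain differences. Mup20 (darcin) was measured at 6838, 4136, 7799 and 5613 TPM in aged/doxo livers, against 10862, 6149, 7189.8 and 7621 TPM in young control livers. The groups overlapped, with aged/doxo library 3 above 3 of the 4 young control libraries. The log2 fold change was -0.39 (95% interval -0.89 to 0.11, limma unadjusted p = 0.114, adjusted p = 1). Mup3 was measured at 11203, 9844, 11585 and 11789.9 TPM in aged/doxo livers, against 17065, 9945, 12477 and 12442 TPM in young control livers. It was the evenest of the 10 genes over the libraries, and young control library 2 lay among the aged/doxo libraries. Mup3 had a log2 fold change of -0.20 (95% interval -0.54 to 0.13, limma unadjusted p = 0.216, adjusted p = 1). Mup21 was measured at 226, 68.9, 191 and 273 TPM in aged/doxo livers, against 455, 173, 308 and 244 TPM in young control livers. Aged/doxo library 2 was far below the others, and the remaining values of the groups overlapped. Mup21 had a log2 fold change of -0.71 (95% interval -1.56 to 0.14, limma unadjusted p = 0.0949, adjusted p = 1). It was -0.28 without aged/doxo library 2, -0.47 without young control library 1 and -0.05 without both. Leaving out young control library 1 also took Mup3 to -0.06, and Mup20 came to -0.22 without aged/doxo library 2 and -0.23 without young control library 1.

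**Figure D3:**
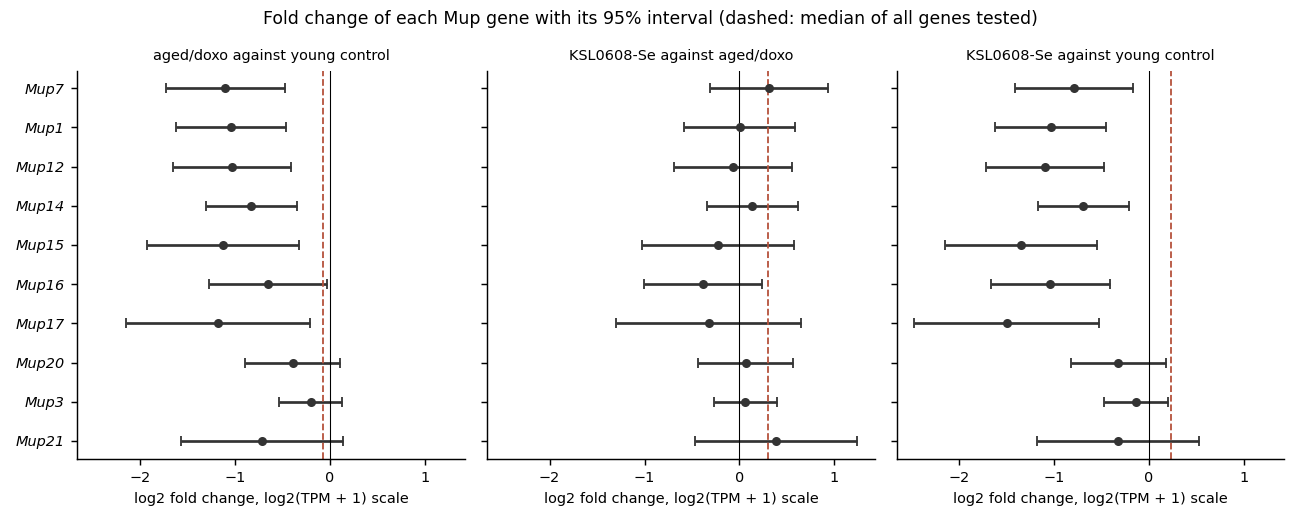
Log2 fold change (x axis, log2(TPM + 1) scale) of each Mup gene with its 95% interval from limma in the 3 comparisons; the dashed line is the median of all genes tested in that comparison. Against young control the 7 central copies lie between -0.66 and -1.18 in aged/doxo livers and their intervals stop short of 0, whereas in KSL0608-Se against aged/doxo all 10 intervals contain 0.

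Among the 10 genes, the make-up differed along the same line. Other Mup genes lying between Mup7 and Mup17, such as Mup22 and Mup10, are outside the sums that follow and are described further below. The 7 central copies together held 5.78%, 3.59%, 5.28% and 3.78% of TPM in aged/doxo libraries 1 to 4, against 12.8%, 7.91%, 9.78% and 6.42% in young control libraries. Those groups did not overlap, and the means of 4.61% ± 1.09 in aged/doxo and 9.22% ± 2.74 in young control livers (SD, n = 4 each) stood at a ratio of 0.499. Mup3, Mup20 and Mup21 together held 1.83%, 1.40%, 1.96% and 1.77% of TPM in aged/doxo libraries, against 2.84%, 1.63%, 2.00% and 2.03% in young control libraries. These values overlapped, with means of 1.74% ± 0.237 in aged/doxo and 2.12% ± 0.511 in young control livers at a ratio of 0.819. The ratio of the first sum to the second, which does not depend on how a library was scaled, was 2.64 ± 0.424 in aged/doxo and 4.36 ± 0.816 in young control livers (SD, n = 4 each). The ratios touched at the limit, since the highest aged/doxo library and the lowest young control library both came to 3.16. The KSL0608-Se libraries had a ratio of 2.73 ± 0.525, from 2.06 to 3.24, and overlapped both other groups. No p is given for these sums and ratios, because the genes were grouped with their values known.

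Mup1 over Mup3, a ratio of single copies, was 0.314, 0.256, 0.279 and 0.217 in aged/doxo libraries, against 0.573, 0.470, 0.540 and 0.344 in young control libraries. Every aged/doxo ratio was lower than every young control ratio. Mup7 over Mup3 was 2.39, 1.04, 2.12 and 1.42 in aged/doxo libraries, against 2.94, 3.75, 3.56 and 2.31 in young control libraries, and those values overlapped. Of the sum of the 10 genes, Mup3 made up 17.9% ± 3.07 in aged/doxo and 11.7% ± 2.05 in young control livers (SD, n = 4 each). Its lowest aged/doxo share only just exceeded its highest young control share. Mup14 held nearly the same part everywhere, 20.5% ± 1.51 in KSL0608-Se, 19.96% ± 1.78 in aged/doxo and 20.01% ± 0.744 in young control livers (SD, n = 4 each). These ratios and shares show unequal differences among the copies and not that any copy was at the same level in both groups.

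**Figure D4:**
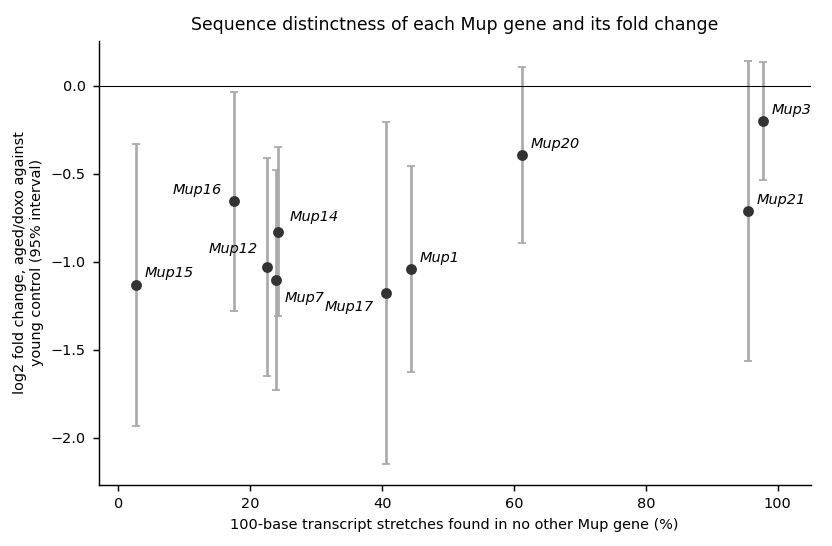
Percent of each gene's 100-base transcript stretches that occur in no other Mup gene (x axis) against its log2 fold change in aged/doxo over young control livers (y axis, whiskers are 95% intervals). The 7 central copies, all below 45% on the x axis, lie between -0.66 and -1.18, while Mup20 at 61.2% and Mup3 at 97.8% lie nearer 0 and Mup21 at 95.5% lies at -0.71 with a wide interval. With 150-base stretches, not drawn, Mup17 at -1.18 comes to 59.6%, close to Mup20 at 68.9%.

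KSL0608-Se livers were next set against aged/doxo livers, which share the word doxo in their labels. No Mup gene passed limma's adjusted p, where 0.00919% of all genes passed as lower and 0% as higher, and none was under an unadjusted p of 0.05. Over all genes, 0.946% were lower and 3.82% higher at that unadjusted threshold. In none of the 10 genes were the groups apart, where 0.358% of all genes lay apart as lower and 2.77% as higher. Of the 10 fold changes, 4 were negative, against 18.8% of all genes. The median of all genes in this comparison was 0.30, so fold changes are read against that value; the Mup median was 0.03 and 8 of the 10 lay below the all-gene median.

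Mup7 was measured at 25939, 17099.9, 20616 and 29122 TPM in KSL0608-Se livers, within and slightly above the aged/doxo range of 10229.6 to 26818 TPM. Its log2 fold change was 0.31 (95% interval -0.31 to 0.94, limma adjusted p = 0.499), close to the all-gene median, but 0.03 without aged/doxo library 2, its lowest, and 0.49 without aged/doxo library 1. Mup1 was measured at 3736, 2146, 2537 and 3651 TPM in KSL0608-Se livers, and the log2 fold change was 0.00 (95% interval -0.58 to 0.59, limma adjusted p = 0.994). The groups had nearly the same mean, 3018 ± 798 TPM in KSL0608-Se and 2958 ± 495 TPM in aged/doxo livers (SD, n = 4 each). Mup14 was measured at 16397, 9357, 14641 and 15476 TPM in KSL0608-Se livers, with KSL0608-Se library 2 below and library 1 above the aged/doxo range. Mup14 had a log2 fold change of 0.14 (95% interval -0.34 to 0.61, limma adjusted p = 0.695).

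Mup16 was measured at 2985, 1583, 1924 and 2638 TPM in KSL0608-Se livers, where libraries 2 and 3 lay below all aged/doxo libraries. Its log2 fold change was -0.38 (95% interval -1.01 to 0.24, limma adjusted p = 0.436), the lowest of the 10. Mup17 was measured at 4628, 1155, 3035 and 1458 TPM in KSL0608-Se livers, wider than the aged/doxo range on both sides, with a log2 fold change of -0.32 (95% interval -1.30 to 0.65). Mup15 was measured at 5887, 1730.4, 3454 and 2794 TPM in KSL0608-Se livers, and also ran past the aged/doxo range on both sides. Its log2 fold change was -0.22 (95% interval -1.02 to 0.58). Mup12 stood at -0.07 (95% interval -0.69 to 0.55).

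Mup20 was measured at 6399, 4749, 6485 and 7546 TPM in KSL0608-Se livers, all inside the aged/doxo range, with a log2 fold change of 0.07 (95% interval -0.43 to 0.56). Mup3 was measured at 12276, 11532, 11716 and 10838 TPM in KSL0608-Se livers, with a log2 fold change of 0.06 and the narrowest interval, -0.27 to 0.40. Mup21 was measured at 223, 186, 226 and 256 TPM in KSL0608-Se livers, inside the aged/doxo range, with a log2 fold change of 0.39 (95% interval -0.47 to 1.24). The signs of these small values depend on the scaling. After median-of-ratios scaling Mup1 stood at -0.37, Mup3 at -0.32, Mup7 at -0.07, Mup14 at -0.24 and Mup20 at -0.31, and the all-gene median was near 0.

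KSL0608-Se livers were last set against young control livers, a comparison whose young control libraries are those already used above. No Mup gene passed limma's adjusted p, which ran from 0.734 to 0.741 for the 10 genes, where 0.00919% of all genes passed as lower and 0.0184% as higher. At an unadjusted p under 0.05, 7 of the 10 were lower and none higher, against 0.662% of all genes that were lower and 2.74% that were higher. All 10 fold changes were negative, against 15.8% of all genes, with a median of -0.91 beside an all-gene median of 0.23. In 4 genes, Mup1, Mup12, Mup14 and Mup16, every KSL0608-Se library lay below every young control library, against 0.358% of all genes, and no Mup gene lay wholly above, against 3.66%. Leaving out 1 library gave 4 to 7 genes wholly below, against 0.524% to 0.983% of all genes. The 7 came without young control library 4, against 0.708% of all genes in the same libraries. That library was the lowest of its group for 7 genes, and leaving out a library can only keep or raise this count.

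The log2 fold changes of the central copies in KSL0608-Se against young control livers ran from -0.69 for Mup14 to -1.50 for Mup17. Mup1 was lower by a log2 fold change of -1.04 (SE 0.27, 95% interval -1.62 to -0.45, limma unadjusted p = 0.00211, adjusted p = 0.734). Mup12 was measured at 1687, 872, 1119 and 1436 TPM in KSL0608-Se livers, against 4562, 1948, 2993 and 1858 TPM in young control livers, and its log2 fold change was -1.10 (limma unadjusted p = 0.00222, adjusted p = 0.734). KSL0608-Se library 1 came within reach of young control library 4 without passing it. Mup7 stood at -0.79 (95% interval -1.42 to -0.17, limma unadjusted p = 0.0171, adjusted p = 0.734), and its groups overlapped because KSL0608-Se library 4 exceeded young control library 4. Mup15 and Mup17 stood at -1.35 and -1.50, and KSL0608-Se library 1 overlapped the young control range for both. Mup20 at -0.32, Mup21 at -0.32 and Mup3 at -0.14 did not pass even the unadjusted threshold, and their intervals contained 0.

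The 12 other Mup genes that are no pseudogenes were also measured. Mup4 and Mup5 stayed under a mean of 1 TPM and were not tested. Of the 10 tested, none passed limma's adjusted p in any comparison. In aged/doxo against young control livers all 10 had negative fold changes, against 64.6% of all genes, with a median of -0.46 beside -0.08, and 2 were lower at an unadjusted p under 0.05, against 0.781% of all genes. Mup11, a neighbouring copy of high level, was measured at 8879 ± 1779 TPM in aged/doxo livers and 16896 ± 6230.2 TPM in young control livers (SD, n = 4 each), a log2 fold change of -0.87 (limma unadjusted p = 0.0061, adjusted p = 1). Mup22 was at 19607 ± 3958 TPM in aged/doxo livers and 25337 ± 4152 TPM in young control livers, a log2 fold change of -0.38. Mup9 stood at -0.80, Mup18 at -0.75, Mup19 at -0.51, Mup6 at -0.41, Mup8 at -0.11 and Mup10 at -0.08. Mup2 and Mup13, the closest coding sequences to Mup15 and Mup17, stood at -0.50 and -0.37, nearer 0 than Mup15 and Mup17. Copies near in sequence or position to the central copies thus did not all have fold changes of their size. The groups overlapped for all 10 of these genes. In KSL0608-Se against young control livers all 10 were negative again, against 15.8% of all genes, with a median of -0.65 beside 0.23, and 5 were lower at the unadjusted threshold, against 0.662% of all genes. With every Mup gene counted, the family held 12.6% ± 2.40 of TPM in KSL0608-Se, 11.998% ± 2.20 in aged/doxo and 19.6% ± 5.26 in young control livers (SD, n = 4 each). On this wider count aged/doxo libraries still lay wholly below young control libraries, but KSL0608-Se and young control libraries overlapped, with 15.2% in the highest KSL0608-Se and 15.001% in the lowest young control library. The 10 genes described made up 52.8% ± 1.78 of that total in aged/doxo and 57.8% ± 1.24 in young control livers, without overlap. Those 10 were chosen with earlier results of these data known, so their contrast with the other Mup genes is a description only. Of the 14 Mup pseudogenes tested, all 14 had negative fold changes in aged/doxo against young control livers and 5 were lower at an unadjusted p under 0.05, beside the same shares of all genes, 64.6% and 0.781%. Pseudogene reads cannot be told apart from reads of the coding copies where sequences are shared.

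Transcripts of growth hormone signalling genes and of hepatocyte transcription factors were also measured. The part of growth hormone in the Mup values was not tested. Of 26 tested genes of growth hormone signalling and hepatocyte transcription factors, none passed limma's adjusted p in any comparison. In aged/doxo against young control livers 1 was lower at an unadjusted p under 0.05, against 0.781% of all genes, and none was higher, against 1.19%. Of the 26, 20 had negative fold changes, against 64.6% of all genes, and the list median of -0.16 stood beside -0.08 for all genes. The 1 lower gene was Socs2, a feedback inhibitor that growth hormone induces. It was measured at 1.90, 0.94, 1.00 and 1.45 TPM in aged/doxo livers, against 9, 4.75, 5.81 and 0.96 TPM in young control livers. Young control library 4, the lowest of its group in the Mup sum, lay among the aged/doxo libraries and the other 3 lay above. Socs2 had a log2 fold change of -1.20 (SE 0.39, limma unadjusted p = 0.00904, adjusted p = 1). In KSL0608-Se livers Socs2 was measured at 1.07, 1.09, 1.73 and 1.78 TPM, a log2 fold change of 0.06 against aged/doxo and -1.14 against young control livers.

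The growth hormone receptor Ghr was measured at 236, 103, 241 and 225 TPM in aged/doxo livers, against 190.0, 249, 226 and 241 TPM in young control livers, a log2 fold change of -0.24 (limma adjusted p = 1). Stat5b, which encodes the signalling transcription factor, stood at -0.13 and Igf1, the growth factor that growth hormone induces, at 0.06. Hnf4a, a hepatocyte transcription factor, stood at -0.21 and Zhx2, a repressor of several liver genes, at -0.28. The feedback inhibitor Cish stood at -0.36, with library values from 0.30 to 6.91 TPM in aged/doxo livers and from 0.31 to 13.4 TPM in young control livers. Onecut1 had a mean of 0.885 TPM and was not tested. Bcl6, a male-biased repressor that competes with STAT5 at liver genes, was measured at 12.7, 15.2, 18.0 and 6.38 TPM in KSL0608-Se livers, against 3.27, 2.45, 6.70 and 4.84 TPM in aged/doxo livers. KSL0608-Se library 4 lay inside the aged/doxo range and the other 3 lay above it. The log2 fold change of Bcl6 was 1.39 against aged/doxo (limma unadjusted p = 0.0298, adjusted p = 0.427) and 1.59 against young control livers (limma unadjusted p = 0.0151, adjusted p = 0.734). Young control libraries 1 to 4 held 0.78, 6.25, 1.14 and 12.6 TPM of Bcl6, and library 4 lay inside the KSL0608-Se range. With Ppara and Insr, Bcl6 was among 3 genes of this list higher in KSL0608-Se than in aged/doxo livers at an unadjusted p under 0.05, against 3.82% of all genes. None of the list was lower there, against 0.946% of all genes.

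Male-biased liver genes other than Mup were described by the same counts. Of 32 tested, 28 had negative fold changes in aged/doxo against young control livers, against 64.6% of all genes, with a median of -0.49 beside -0.08. At an unadjusted p under 0.05, 7 were lower, against 0.781% of all genes, and none higher, and none passed limma's adjusted p. Serpina12, which encodes the secreted serpin vaspin, was measured at 13.3, 9.19, 10.4 and 14.8 TPM in aged/doxo livers, against 18.6, 19.8, 26.4 and 24.2 TPM in young control livers. The groups did not overlap, and the log2 fold change was -0.86 (SE 0.24, limma unadjusted p = 0.00361, adjusted p = 1). Ces4a, a carboxylesterase gene, stood at -0.81, the glucuronosyltransferase gene Ugt2b38 at -1.56 and the monooxygenase gene Moxd1 at -2.22, each with an adjusted p of 1 by limma. Of 11 tested female-biased genes, 2 had negative fold changes, with a median of 0.28, and Fmo2, a flavin monooxygenase gene, was higher at an unadjusted p of 0.0126 by limma (log2 fold change 0.59, adjusted p = 1). In KSL0608-Se against aged/doxo livers the male-biased median was 0.33 and the female-biased median 0.48, beside 0.30 for all genes. In KSL0608-Se against young control livers 21 of the 32 male-biased genes had negative fold changes, against 15.8% of all genes, and 3 were lower at an unadjusted p under 0.05, against 0.662%. Their median there was -0.08 beside 0.23 for all genes, while the Mup median was -0.91. The female-biased median in that comparison was 0.56.

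Other secreted products of hepatocytes lay nearer the median of all genes. Of 28 abundant secretory genes, none was under an unadjusted p of 0.05 in aged/doxo against young control livers. Over all genes 0.781% were lower and 1.19% higher there, so none in a list of this length is near the all-gene share. Of the 28, 14 had negative fold changes, against 64.6% of all genes, and the median was 0.00 beside -0.08. Alb, which encodes serum albumin, was measured at 40941, 16214, 32878 and 37189 TPM in aged/doxo livers, against 21956, 38779, 34416 and 35493 TPM in young control livers. The lowest values of Alb fell in aged/doxo library 2 and young control library 1, which stood apart on the first principal component, so Alb was low in the young control library in which all 10 Mup genes were highest. Of 10 tested lipocalin genes outside the Mup family, none was under an unadjusted p of 0.05 in aged/doxo against young control livers, again near the all-gene share. Of these, 4 had negative fold changes and the median was 0.05.

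Markers of other liver cells were counted in the same way, and none passed limma's adjusted p in any comparison. Erythroid markers were higher in aged/doxo than in young control livers at an unadjusted p under 0.05 in 4 of 6 tested, against 1.19% of all genes, and lower in KSL0608-Se than in aged/doxo livers in 4 of 6, against 0.946%. Their sums were 851 to 1781 TPM in KSL0608-Se livers, 1843 to 2571 TPM in aged/doxo livers and 839 to 1998 TPM in young control livers. Of 12 stellate and fibroblast markers, none had a negative fold change in aged/doxo against young control livers, 3 were higher at the unadjusted threshold and the median was 0.27. In KSL0608-Se against aged/doxo livers 3 of these 12 were lower and 1 higher. Their sums were 135 to 176 TPM in KSL0608-Se livers, 123 to 237 TPM in aged/doxo livers and 123 to 164 TPM in young control livers. Of 12 Kupffer cell and macrophage markers, 11 had negative fold changes in aged/doxo against young control livers with a median of -0.52 beside -0.08 for all genes, and none was under the unadjusted threshold. Their sums were 191 to 286 TPM in KSL0608-Se livers, 73.9 to 486 TPM in aged/doxo livers and 187 to 330.1 TPM in young control livers. Of 12 sinusoidal endothelial markers, 6 were higher and 1 lower in KSL0608-Se than in aged/doxo livers at the unadjusted threshold, against 3.82% and 0.946% of all genes, with a median of 0.63 beside 0.30. Their sums were 77.9 to 146 TPM in KSL0608-Se livers, 50.7 to 123 TPM in aged/doxo livers and 51.0 to 108 TPM in young control livers. The part of these cell types in the Mup values was not tested.

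**Figure D5:**
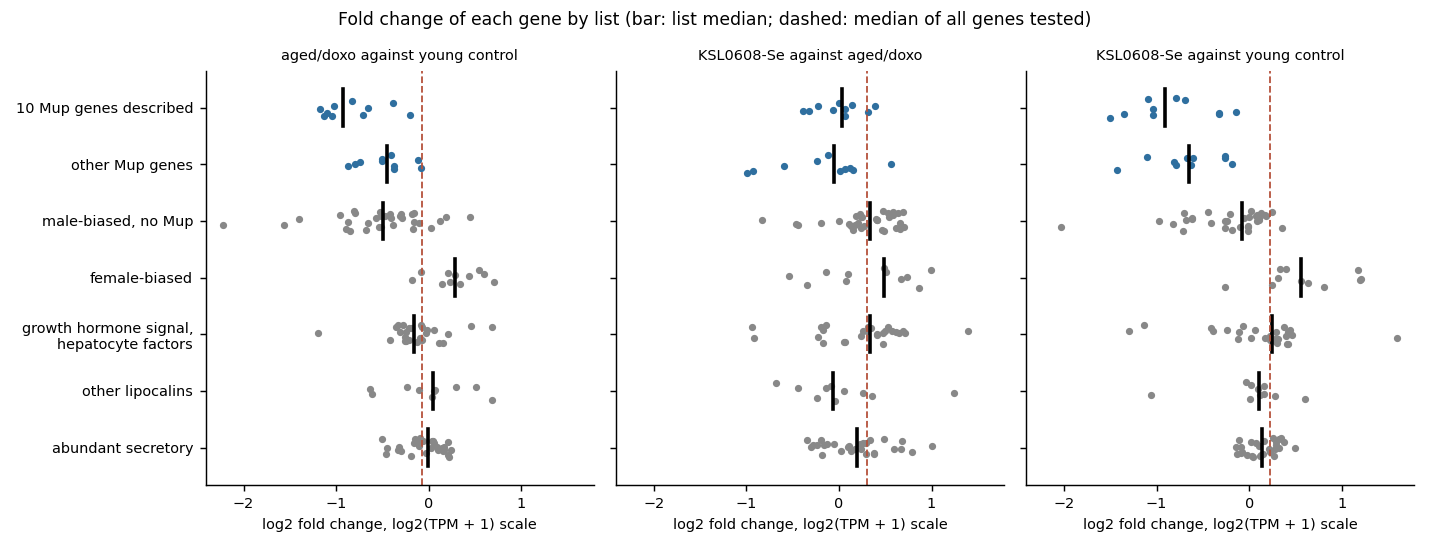
Log2 fold change (x axis, log2(TPM + 1) scale) of each tested gene, 1 dot per gene, by list in the 3 comparisons; the vertical bar is the list median and the dashed line the median of all genes tested. In aged/doxo against young control livers the medians are -0.93 for the 10 Mup genes, -0.46 for other Mup genes, -0.49 for other male-biased genes and 0.00 for abundant secretory genes.

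Likeness to the Mup sum was measured as the root-mean-square difference between a gene's centred log2(TPM + 1) and that of the sum over the 12 libraries. Among the 10 genes it was smallest for Mup14 at 0.089 and Mup1 at 0.175, and largest for Mup21 at 0.450 and Mup17 at 0.593. The sum itself had an SD of 0.464 on this scale, and the median over 10614 genes outside the family was 0.626. The 6 genes most like the sum were Gm14403, Adh6-ps1, Gm30262, Gm31583, Ces4a and Ermard, at 0.251 to 0.317. Adh6-ps1, a pseudogene, was measured at 9.16 ± 1.10 TPM in KSL0608-Se, 10.2 ± 1.97 TPM in aged/doxo livers and 15.7 ± 3.18 TPM in young control livers (SD, n = 4 each). All 6 had mean levels far below those of the Mup genes.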

How the data were processed

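RNA-seq libraries of mouse liver, 4 in each of 3 groups, were deposited as 1 table of TPM made by the authors; groups follow the sample titles. Reads were processed with fastp, HISAT and RSEM, per the submitters' processing notes; versions and order are not stated there. The sources used here do not name the genome build, the annotation or the strandedness. TPM keeps no sequencing depth, so depth is unknown and no counting intervals were computed. Positions were looked up by gene identifier in GENCODE M21 (GRCm38).

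The model used log2(TPM + 1) of the 10883 genes with a mean of at least 1 TPM, which includes all 10 Mup genes. On this scale low genes show too small a fold change. All 12 libraries entered 1 fit in limma 3.58.1 (R 4.3.3), with group alone as a term and an intensity trend; tests were two-sided, with Benjamini-Hochberg adjustment over all genes and a threshold of 0.05. The procedure was tested on simulated data. The Mup genes and gene lists were chosen with earlier results of these data known. Named genes were all Mup genes, up to 4 of smallest p in each list, 9 growth hormone genes and the 6 most like the Mup sum. Libraries with the same replicate number did not in general deviate together, so numbers were not treated as pairs. In KSL0608-Se against young control, the same number was the closest match for replicates 1 and 2, at correlations of 0.39 and 0.063. Alternatives covered pseudocount, filter, scaling, replicate block, robust and weighted fits and leaving out libraries. Sequences were compared with Biopython 1.88 in Python 3.11.15, and figures drawn with matplotlib 3.10.9.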

Additional observations from a re-analysis of the deposited data

Results flagged for a closer look

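In groups of 4, a library was marked where its gap to the nearest other, as a share of the group's range, exceeded Dixon's 95% critical value; 81 such groups were examined, chance marks about 1 in 20, and 5 were marked where 4.05 would be expected. Mup16 in aged/doxo library 2 stood at 4155 TPM, above its group's other 3 at 2484 to 2687 TPM. Mitochondrial genes held 27.6% of TPM in the same library. In young control library 4, Mup3 made up 14.7% of the sum of the 10 Mup genes, the highest of its group. In young control library 1, Mup14 made up 18.9% of that sum, the lowest of its group, and Mup16 made up 4.93%, the highest.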

How the results depend on the processing

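For aged/doxo against young control, 259 of 260 gene-by-setting values kept their direction and none passed limma's adjusted p (smallest 0.0724); Mup20 turned to 0.054 with array quality weights, and Mup21 stood at -0.046 with young control library 1 and aged/doxo library 2 both left out. Sizes moved more: leaving out 1 library gave -0.32 to -0.061 for Mup3, -0.52 to -0.22 for Mup20, -0.83 to -0.40 for Mup16 and -0.94 to -0.28 for Mup21, while the other 6 genes moved by less than 1.5 times. For KSL0608-Se against young control, 256 of 260 kept direction and call. With array quality weights Mup12 and Mup16 passed (adjusted p = 0.0474), making 2 called genes of the 10, and Mup3 turned to 0.0027 without young control library 1, alone or together with aged/doxo library 2; leaving out 1 library gave -0.26 to 0.0027 for Mup3, -0.44 to -0.16 for Mup20 and -0.55 to -0.086 for Mup21.

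For KSL0608-Se against aged/doxo, 30 of 260 values turned direction. Mup1 came to -0.37 with median-of-ratios scaling, -0.15 with quantile scaling, -0.20 without the 50 most abundant and mitochondrial genes in the total, -0.082 without mitochondrial genes, -0.23 with quality weights and -0.067 with both libraries that stood apart left out (young control 1 and aged/doxo 2). Mup3 came to -0.32, Mup7 to -0.069, Mup14 to -0.24 and Mup20 to -0.31 with median-of-ratios scaling. With quality weights Mup3 came to -0.0079, Mup7 to -0.15, Mup14 to -0.081 and Mup20 to -0.32. Without the 50 most abundant and mitochondrial genes Mup3 came to -0.14, Mup14 to -0.071 and Mup20 to -0.14, and without mitochondrial genes alone Mup3 to -0.023 and Mup20 to -0.021. With both libraries left out, Mup20 came to -0.11 and Mup21 to -0.040. Leaving out 1 library gave -0.11 to 0.16 for Mup1, 0.0070 to 0.096 for Mup3, 0.030 to 0.49 for Mup7, -0.22 to 0.10 for Mup12, 0.034 to 0.32 for Mup14, -0.52 to 0.067 for Mup15, -0.53 to -0.21 for Mup16, -0.68 to -0.013 for Mup17, -0.11 to 0.20 for Mup20 and -0.040 to 0.62 for Mup21.

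The Mup sum differed by -7.60 and -7.01 percentage points from young control in aged/doxo and KSL0608-Se livers when all Mup genes were summed. Between KSL0608-Se and aged/doxo it differed by -1.18 with median-of-ratios scaling, on a scale that is not a percent of a library's TPM. The count of genes apart between aged/doxo and young control was 1 in place of 6 with that scaling; leaving out 1 library gave 6 to 7, where 0.404% to 2.21% of all genes lay wholly lower, and 4 to 7 for KSL0608-Se against young control, where 0.524% to 0.983% did. That scaling set the all-gene median near 0 in KSL0608-Se against aged/doxo, where it otherwise was 0.30.

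Genes called over all genes numbered 1, 1 and 3 in aged/doxo against young control, KSL0608-Se against aged/doxo and KSL0608-Se against young control. The replicate block gave 0, 0 and 1, with no Mup gene called; same-numbered libraries correlated at -0.58 to 0.39 and were not paired. Quality weights gave 74, 77 and 29; no filter 0, 0 and 1; the compared groups alone 0, 2 and 1; and leaving out 1 library 0 to 2, 0 to 1 and 1 to 5. In the first comparison, pseudocounts 0.1 and 0.01 each gave 2, and median-of-ratios, quantile and the total without the 50 most abundant and mitochondrial genes each gave 3. In the second, a pseudocount of 0.01, median-of-ratios, quantile and leaving out both libraries each gave 0. In the last, totals without the 50 most abundant and mitochondrial genes, or without mitochondrial genes, each gave 5. The cause was not tested. The authors' division of reads among near-identical copies could not be varied, and depth is unknown.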
